A study of Homo sapiens with 2 samples.

Results

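The genes described here carry out antigen presentation by MHC class I, the surface complex that shows peptides from inside a cell to cytotoxic T cells and natural killer cells. They were chosen by gene symbol and number 9 of the 57158 genes in the deposited table. They comprise the heavy chain genes HLA-B, HLA-C, HLA-E and HLA-G, the light chain B2M, the peptide transporter subunits TAP1 and TAP2, the loading factor TAPBP and the transcriptional activator NLRC5. Each symbol matched exactly 1 row of the table. The cells were liver progenitors made from CyT49, a human embryonic stem cell line, which had been definitive endoderm at day 2. They then spent 6 days in suspension with BMP4 at 50 ng/ml, FGF2 at 10 ng/ml and FBS at 0.2%, and were collected at day 8. Poly(A) RNA was sequenced in 2 libraries of this 1 group, and with no other group no change with time or treatment could be measured. Cells of 1 line share 1 set of HLA alleles, which the labels do not give.

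In the endoplasmic reticulum a heavy chain folds with B2M and waits in a loading complex of TAPBP (tapasin), calreticulin and PDIA3. The TAP1 and TAP2 transporter feeds it peptides that the proteasome has cut in the cytosol. HLA-B and HLA-C are classical, highly polymorphic heavy chains, whereas HLA-E and HLA-G vary little and are read mainly by receptors of natural killer and myeloid cells. NLRC5 activates class I genes through the SXY module of their promoters, where RFX, CREB/ATF and NF-Y factors sit, and interferons raise most genes of the pathway through interferon-stimulated response elements. Hepatocytes and embryonic cells are known for low surface class I compared with blood cells.

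Levels are given in RPKM, which divides reads by gene length and by library depth, so that those of different genes can be compared per length. Every value under 0.5 RPKM was listed as 0.1, which is called the floor. Library 1 was normalized to 25183071 reads, and library 2 to 25264549 reads, as read from the spacing of the values. A level of 1 RPKM was therefore 25.2 reads per kilobase of gene in library 1. The variance between the libraries was 1.09 times that of counting alone, so they were counted as 1 sample, and the SD between them is technical error. All 14 liver progenitor markers reached 1 RPKM, beside 59.8% of protein-coding genes. These markers include AFP at 706 RPKM and HNF4A at 44.7 RPKM. Of 9 pluripotency markers 4 reached 1 RPKM, beside the same 59.8%. These 4 stood at 129, 13.1, 12.6 and 1.87 RPKM. The other 5 were at the floor in both libraries, among them the factors POU5F1, NANOG and SOX2.

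The upstream sequences of members from both ends of the range are shown first, as context for the levels below. They are the 250 bases before the transcription start in RefSeq on GRCh38.p14 (the farthest upstream start where a gene had several), written 5′ to 3′ on the gene's strand. Of the 9 members, 7 had an entry, and HLA-E and NLRC5 had none. HLA-G is not printed, since its 250 bases before the farthest upstream of several starts held none of the motifs named below. Capitals mark CCAAT (the box that NF-Y reads), TGACG (a core of CREB/ATF sites) and the ISRE core, an interferon-stimulated response element written here as GAAA, any 2 bases and GAAA, each on either strand. HLA-B lies at chr6:31357180-31357429 (minus), HLA-C at chr6:31272093-31272342 (minus), B2M at chr15:44711267-44711516 (plus), TAPBP at chr6:33314079-33314328 (minus), TAP1 at chr6:32853705-32853954 (minus) and TAP2 at chr6:32838740-32838989 (minus).
HLA-B: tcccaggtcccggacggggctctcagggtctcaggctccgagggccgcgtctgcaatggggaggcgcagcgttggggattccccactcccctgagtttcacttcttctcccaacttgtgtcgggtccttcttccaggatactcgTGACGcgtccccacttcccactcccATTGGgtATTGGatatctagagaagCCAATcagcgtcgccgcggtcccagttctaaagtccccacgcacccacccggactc
HLA-C: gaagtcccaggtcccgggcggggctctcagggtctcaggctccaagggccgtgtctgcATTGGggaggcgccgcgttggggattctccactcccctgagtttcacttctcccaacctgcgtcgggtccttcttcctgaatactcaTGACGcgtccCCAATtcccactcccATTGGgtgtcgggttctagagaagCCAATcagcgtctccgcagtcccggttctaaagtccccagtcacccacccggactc
B2M: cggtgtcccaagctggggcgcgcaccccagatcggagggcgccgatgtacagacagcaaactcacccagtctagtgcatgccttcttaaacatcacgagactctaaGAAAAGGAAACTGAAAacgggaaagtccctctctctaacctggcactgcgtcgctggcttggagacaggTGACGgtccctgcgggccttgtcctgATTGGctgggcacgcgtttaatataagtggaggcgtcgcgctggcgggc
TAPBP: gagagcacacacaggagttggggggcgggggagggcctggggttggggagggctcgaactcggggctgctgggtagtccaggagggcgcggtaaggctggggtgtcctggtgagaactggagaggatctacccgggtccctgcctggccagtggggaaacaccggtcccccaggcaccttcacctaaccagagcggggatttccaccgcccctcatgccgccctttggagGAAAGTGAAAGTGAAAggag
TAP1: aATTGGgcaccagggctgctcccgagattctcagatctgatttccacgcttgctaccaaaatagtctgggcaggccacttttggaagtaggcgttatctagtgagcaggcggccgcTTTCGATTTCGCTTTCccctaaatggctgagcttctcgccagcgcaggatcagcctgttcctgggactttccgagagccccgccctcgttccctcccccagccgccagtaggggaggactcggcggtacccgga
TAP2: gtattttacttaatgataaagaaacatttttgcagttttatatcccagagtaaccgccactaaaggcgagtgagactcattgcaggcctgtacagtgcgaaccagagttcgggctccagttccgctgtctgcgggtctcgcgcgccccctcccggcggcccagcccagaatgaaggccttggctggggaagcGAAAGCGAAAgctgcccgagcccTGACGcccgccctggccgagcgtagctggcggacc

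HLA-B held TGACG beginning 106 bases before its start and CCAAT letters at 81, 74 and 56 bases. HLA-C held TGACG at 105 bases and CCAAT letters at 192, 95, 80 and 56 bases. Aligned end to end, these 2 stretches were identical at 226 positions, or 89.0% with gaps counted. B2M held TGACG at 75 bases, CCAAT letters at 49 bases, and 2 overlapping ISRE core matches at 144 and 138 bases. TAP1 held 2 overlapping matches of the ISRE core at 134 and 128 bases and CCAAT letters at 249 bases, with no TGACG. TAP2 held the ISRE core at 58 bases and TGACG at 35 bases, and TAPBP held 2 overlapping ISRE core matches at 20 and 14 bases. Of 35116 stretches of the same length in the RefSeq table, 3.02% held the ISRE core, 32.0% CCAAT and 21.2% TGACG. A shorter core, with 1 base between the GAAA repeats, and the interferon-gamma site core, TTC, any 3 bases and GAA, were in none of these 6 sequences nor in that of HLA-G, beside 2.69% and 6.57% of all stretches. HLA-B and HLA-C held no exact match of the ISRE core. Forms of this element with other letters were not searched, so its absence from these 2 genes cannot be read from this. These are matches of letters, not measured sites.

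Of the 9 members, 6 reached 1 RPKM in both libraries, beside 59.8% of 19344 protein-coding genes and 26.3% of all genes in the table. Of the members, 5 reached 10 RPKM, beside 20.2% of protein-coding genes, and neither library had TAP1 or NLRC5 above the floor, which held for 2 members beside 33.8%. The median member stood at 13.0 RPKM and the median protein-coding gene at 2.42 RPKM. The heavy and light chains and TAPBP made up the upper part of the range, while both transporter subunits and NLRC5 made up the lower.

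**Figure D1:**
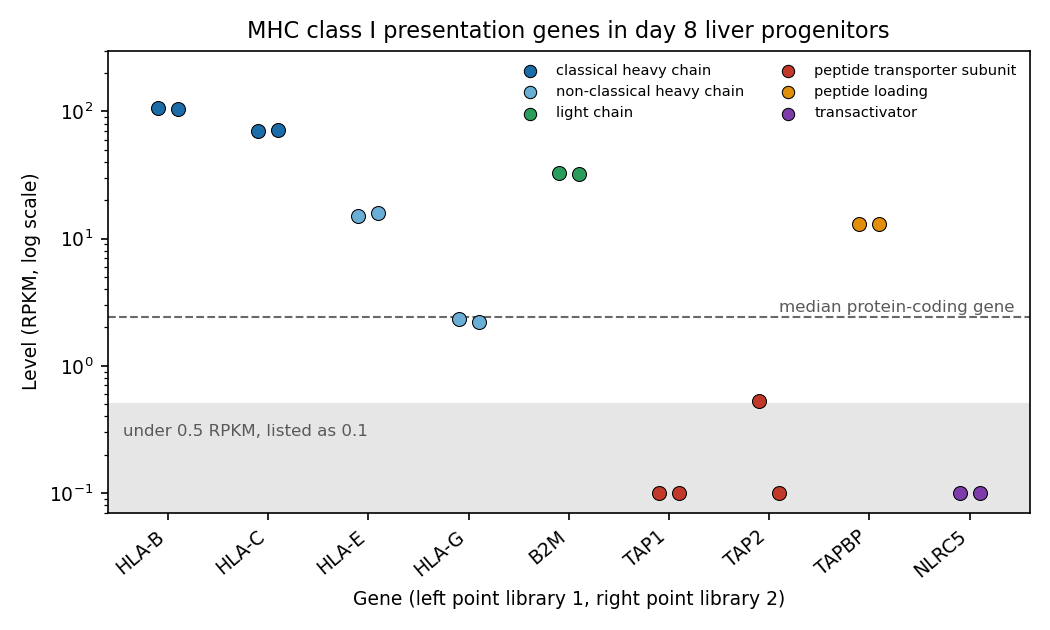
Level of each member in RPKM on a log axis, with library 1 on the left and library 2 on the right of each gene; the grey band is the range under 0.5 RPKM, listed as 0.1, and the dashed line is the median protein-coding gene at 2.42 RPKM. HLA-B and HLA-C lie highest, and TAP1 and NLRC5 lie at the floor in both libraries.

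Among the classical heavy chains, HLA-B had 105.7 RPKM in library 1 and 104.2 RPKM in library 2. It is ENSG00000234745.5, on the minus strand of chromosome 6 from 31321649 to 31334844 (GRCh37, as for all gene positions here), and it lay above 98.8% of protein-coding genes, at rank 242. HLA-C, ENSG00000204525.10, from 31236526 to 31239907 on the same chromosome, had 70.5 RPKM in library 1 and 71.6 RPKM in library 2, above 98.0% of protein-coding genes. HLA-C thus stood at 0.677 ± 0.014 times the level of HLA-B (SD, n = 2 libraries). The gap of 33.8 RPKM was 31.8 times the larger SD between libraries.

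The non-classical heavy chains were lower. HLA-E, whose product presents leader peptides of other class I chains to natural killer receptors, had 15.0 RPKM in library 1 and 15.9 RPKM in library 2, or 0.147 ± 0.0079 times HLA-B. It is ENSG00000204592.5, from 30457286 to 30461971 on chromosome 6, and its libraries were the farthest apart of the members above the floor, by 6.12% of the mean. HLA-G, known for its place on invasive trophoblast, had 2.33 RPKM in library 1 and 2.21 RPKM in library 2, close to the median protein-coding gene. It is ENSG00000204632.7, from 29794744 to 29798902, and lay at 0.0216 ± 0.00059 times HLA-B. Of 14 trophoblast markers 5 reached 1 RPKM, beside 59.8% of protein-coding genes. The summed level of these markers was 156 RPKM in library 1 and 161 RPKM in library 2. CGA at 136, GATA3 at 10.3 and PGF at 9.41 RPKM led them, and GCM1, TFAP2A, KRT7, ERVW-1 and ERVFRD-1 were at the floor. Their part in the HLA-G level was not tested.

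The light chain B2M had 32.6 RPKM in library 1 and 32.5 RPKM in library 2, above 94.7% of protein-coding genes. It is ENSG00000166710.12, on chromosome 15 from 45003556 to 45011049, and its 2 values were the closest of the members above the floor, 0.247% of the mean apart. All classical and non-classical class I heavy chains pair with this single light chain. The 4 heavy chain genes together reached 194 RPKM, 5.96 ± 0.020 times the level of B2M (SD, n = 2 libraries), and HLA-B alone reached 3.23 times. These are ratios of transcript levels per length, and protein was not measured.

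The peptide transporter stood at the other end. TAP1, ENSG00000168394.9, on chromosome 6 from 32812986 to 32821593, was at the floor in both libraries. TAP2, ENSG00000204267.9, from 32789610 to 32806516, was listed at 0.531 RPKM in library 1 and at the floor in library 2. On the main annotated transcript of TAP1, of 2685 bases, 0.5 RPKM would stand for 33.8 reads in library 1, so TAP1 may still have been transcribed below that level. Taking 0.5 RPKM as the upper limit of TAP1, HLA-B was at least 209.8-fold higher per length, HLA-C at least 142-fold, B2M at least 65.0-fold and TAPBP at least 26.0-fold. TAP2 shares sequence with the overlapping gene ENSG00000250264, which had 0.884 RPKM in library 1 and 0.642 RPKM in library 2. Of the 50-base words in the main TAP2 transcript, 35.3% also occur in other genes, so the level of TAP2 is uncertain.

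TAPBP, the tapasin that bridges the transporter to the waiting heavy chain, had 12.9 RPKM in library 1 and 13.1 RPKM in library 2. It is ENSG00000231925.7, from 33267471 to 33282061 on chromosome 6, and stood at 0.400 ± 0.0039 times B2M, above 84.4% of protein-coding genes. The loading factor and the transporter it binds were therefore on different sides of the detection limit. NLRC5, ENSG00000140853.11, on chromosome 16 from 57023397 to 57117443, was at the floor in both libraries. On its main transcript of 6781 bases the floor would stand for fewer than 85.4 reads in library 1.

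In order of level the 6 members above the floor were HLA-B, HLA-C, B2M, HLA-E, TAPBP and HLA-G. No neighbours in this order overlapped between libraries. The closest pair was HLA-E and TAPBP, 2.44 RPKM apart, which was 3.64 times the larger SD. No member above the floor in both libraries differed past 1.5-fold between libraries, and 0.0171% of protein-coding genes at a mean of 1 RPKM or more did, on a scale of log2(RPKM + 1). Those were 2 genes, AL590235.1 and ENSG00000258881, named after their values were seen. Nothing in the labels tells if separate cultures were used.

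**Figure D2:**
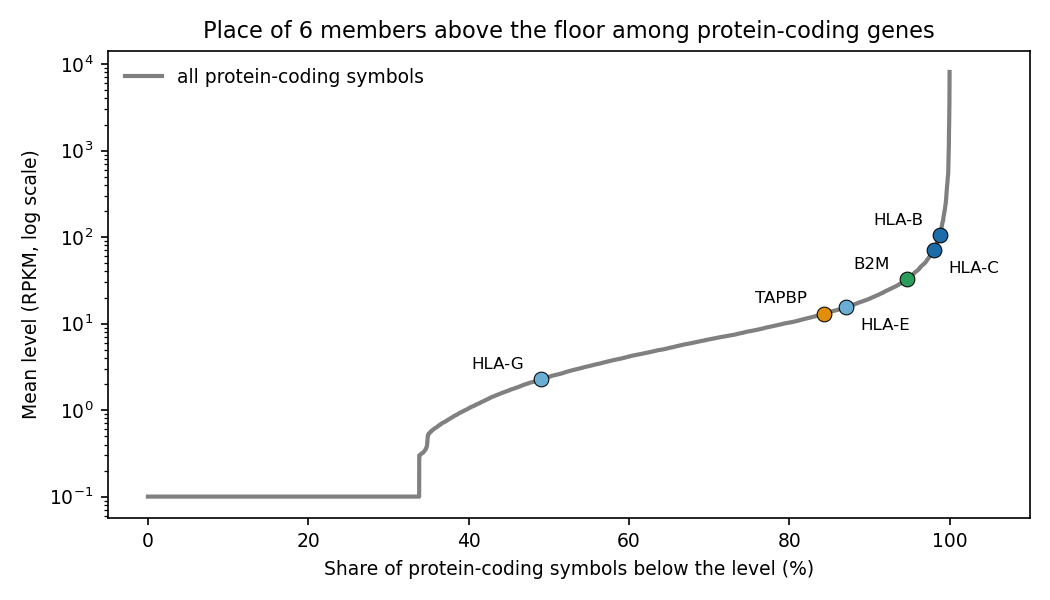
Mean level in RPKM on a log axis against the share of protein-coding genes with a lower level, in percent; the grey line is all 19344 protein-coding genes, and points are the 6 members above the floor in both libraries. HLA-B and HLA-C lie above 98.8% and 98.0% of genes, and HLA-G lies near the middle.

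HLA genes resemble each other, and reads could be shared between them. Of the 50-base words of the main reference transcript, 2.56% in HLA-B, 6.76% in HLA-C, 6.16% in HLA-E and 5.28% in HLA-G also occurred in a transcript of another gene, and none did in B2M or NLRC5. The share was 1.18% in TAP1 and 6.98% in TAPBP. With words of 100 bases the share was 0% for HLA-B, 0.277% for HLA-C, 0.612% for HLA-E and 1.23% for HLA-G. The pseudogene HLA-H had 21.0 RPKM in library 1 and 21.3 RPKM in library 2, and 22.3% of its 50-base words occurred in other genes, so its level is uncertain. HLA-F, a further non-classical heavy chain, was at the floor. Of 8 other heavy chain loci of the list only HLA-H reached 1 RPKM in both libraries. That stood beside 59.8% of protein-coding genes and 26.3% of all genes in the table. The words come from the reference alleles, and how the alleles of CyT49 mapped was not tested. Whether the counting used strand is not given. An antisense pseudogene within HLA-B, ENSG00000271581, had 0.802 RPKM in library 1 and 0.600 RPKM in library 2.

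The proteasome supplies the peptides, and its inducible form replaces the catalytic subunits PSMB5, PSMB6 and PSMB7 with PSMB8, PSMB9 and PSMB10. Neither library had PSMB8 or PSMB9 above the floor, against 59.3 ± 1.8 RPKM for PSMB5 and 53.9 ± 1.8 RPKM for PSMB6 (SD, n = 2 libraries). PSMB10 had 2.34 RPKM in library 1 and 2.46 RPKM in library 2, against 42.4 and 40.8 RPKM for PSMB7, a ratio of 0.0578. With floor values set to 0.5 RPKM, the inducible subunits together reached at most 0.0220 times the constitutive ones. PSMB8 and PSMB9 neighbour TAP1 on chromosome 6, and in RefSeq the starts of PSMB9 and TAP1 lie 488 bases apart on opposite strands. All genes of this block from TAP2 to TAP1, PSMB8-AS1 included, were at the floor in at least 1 library, apart from the overlapping ENSG00000250264.

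**Figure D3:**
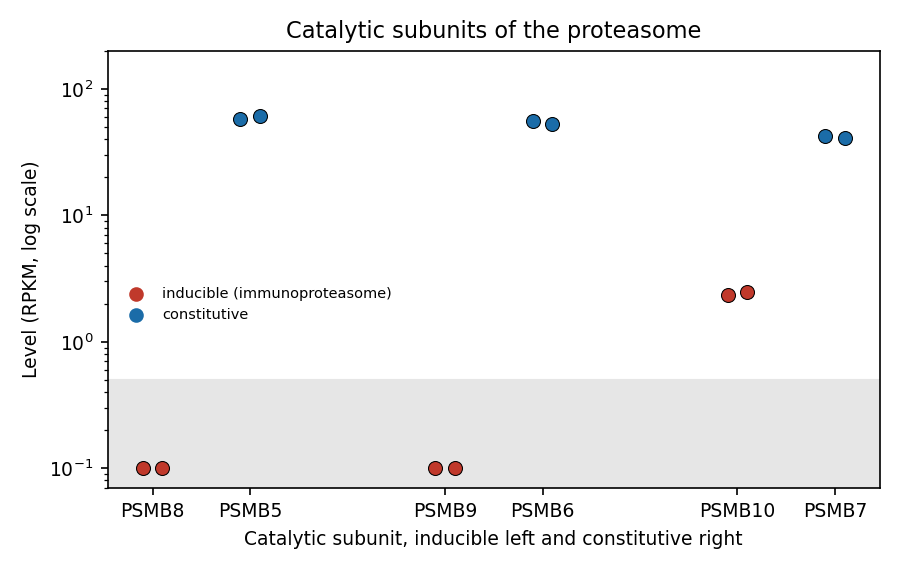
Level in RPKM on a log axis of each inducible catalytic subunit (left, red) and the constitutive subunit it replaces (right, blue), with 1 point per library; the grey band is the range under 0.5 RPKM. PSMB8 and PSMB9 lie at the floor, and PSMB10 lies at 2.40 RPKM, against 41.6 RPKM for PSMB7.

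Most of the other machinery around the transporter was detected. The counts in this paragraph stand beside 59.8% of protein-coding genes at 1 RPKM or more, and the medians beside 2.42 RPKM. All 10 other core subunits of the proteasome that were matched reached 1 RPKM, with a median of 24.4 RPKM, PSMA7 at 76.7 RPKM as the highest and PSMA6 at 9.11 RPKM as the lowest. The proteasome activators PSME1 at 25.7 and PSME2 at 6.65 RPKM, both inducible by interferon-gamma, stood 3.86-fold apart, and PSME3 had 18.6 and PSME4 8.48 RPKM. All 7 cytosolic peptidases reached 1 RPKM, from NRDC at 18.7 to IDE at 6.27 RPKM. Of 16 genes for loading, folding and export in the endoplasmic reticulum, 14 reached 1 RPKM, with a median of 32.2 RPKM beside 2.42 RPKM for protein-coding genes. The chaperone CALR led with 481 RPKM, 36.9 times TAPBP, followed by HSP90B1 at 237, HSPA5 at 221 and PDIA4 at 129 RPKM. These chaperones serve many proteins. The lowest of the list were the peptide-trimming aminopeptidases ERAP1 at 1.15 RPKM and ERAP2 at the floor, and the tapasin relative TAPBPL, also at the floor.

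**Figure D4:**
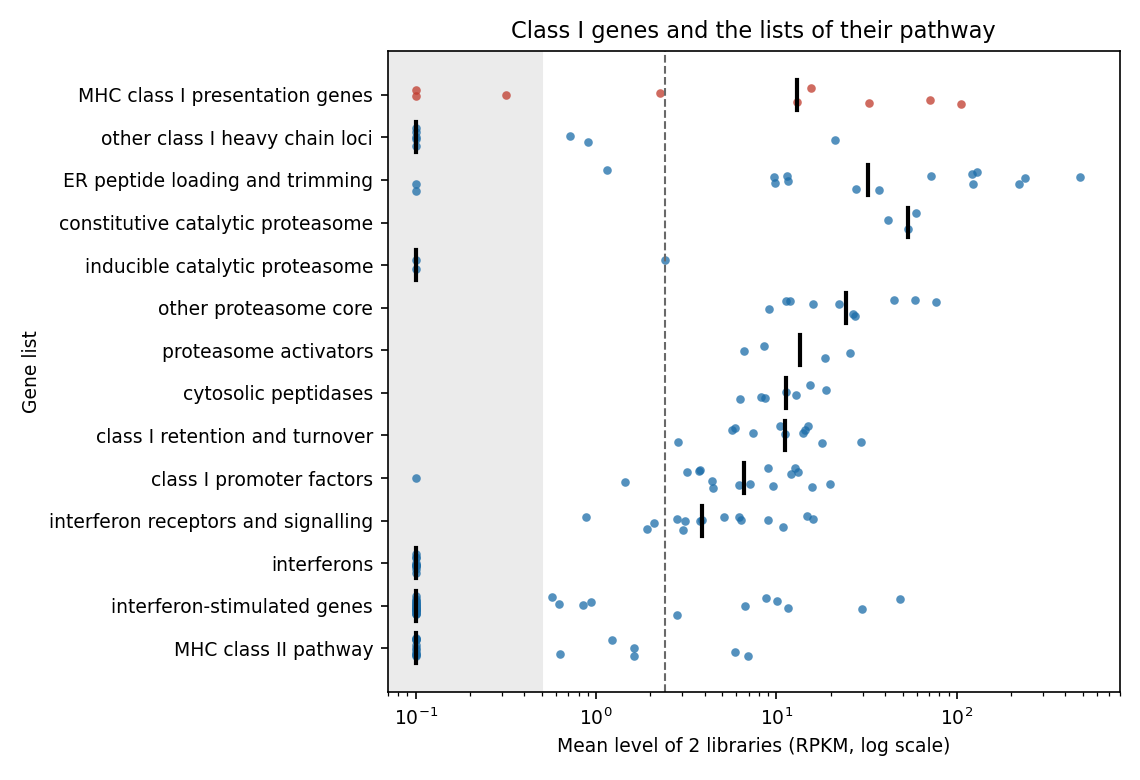
Mean level in RPKM on a log axis of every matched gene in the class I set (top, red) and in lists of the surrounding pathway (blue), with black bars for medians, the grey band for values under 0.5 RPKM and the dashed line for the median protein-coding gene. Proteasome, peptidase and loading lists lie mostly above the median gene, and interferons and most interferon-stimulated genes lie at the floor.

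Factors that act at class I promoters were detected apart from NLRC5 and IRF1. Of 16 such genes 15 reached 1 RPKM, beside 59.8% of protein-coding genes. The median of the 16 was 6.64 RPKM, beside 2.42 RPKM for protein-coding genes. USF2 at 19.8, NFYA at 15.7, RFXANK at 13.2 and SP1 at 12.6 RPKM were the highest, and RFXAP at 3.18, REL at 1.45 and IRF1 at the floor were the lowest. RFXANK and RFXAP are subunits of the RFX complex, and RFX5, the remaining subunit, had 8.92 RPKM. IRF1 is an interferon-induced activator that acts on response elements of class I, TAP1 and PSMB9 genes. It was listed under 0.5 RPKM, as were NLRC5, TAP1 and PSMB9, beside 33.8% of protein-coding genes. The class I genes HLA-B, HLA-C and B2M had 105, 71.1 and 32.5 RPKM. A link between the levels of IRF1 or NLRC5 and those of the other genes was not tested.

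Interferon receptors and their signalling genes were detected in 14 of 15 cases, beside 59.8% of protein-coding genes. The median of the 15 was 3.87 RPKM, beside 2.42 RPKM for protein-coding genes. The interferon-gamma receptor chain IFNGR2 had 14.7, STAT2 10.9 and IFNGR1 8.96 RPKM, while IFNLR1 had 2.11, IRF9 1.92 and the kinase JAK2 0.875 RPKM. All 10 interferon genes of the list, among them IFNG and IFNB1, were at the floor, beside 33.8% of protein-coding genes. Of 31 interferon-stimulated genes 7 reached 1 RPKM, beside 59.8% of protein-coding genes. For 20 neither library passed the floor, beside 33.8% of protein-coding genes. The 7 were IFITM3 at 48.1, ISG15 at 29.9, UBE2L6 at 11.5, IFITM2 at 10.1, IFITM1 at 8.73, BST2 at 6.70 and IRF7 at 2.82 RPKM. IFIT1, MX1, OAS1, GBP1 and CXCL10 were among those at the floor.

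Genes for retention and turnover of class I proteins reached 1 RPKM in all 11 matched cases, beside 59.8% of protein-coding genes. The list includes the endoplasmic reticulum ubiquitin ligases and the Polycomb subunits that are known to repress class I promoters. HM13, the signal peptide peptidase that frees the HLA-E ligand, had 29.3 RPKM, the ligases RNF5 17.9 and SYVN1 14.3 RPKM, and EZH2, the Polycomb methyltransferase, 10.4 RPKM. EED had the lowest level, 2.85 RPKM.

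The class I members on chromosome 6 sit in the gene-dense MHC. Between the outermost protein-coding HLA genes of the annotation, from 29690552 to 33057473, lay 135 protein-coding genes, of which 77 (57.0%) were detected, beside the 59.8% given above. Their median of 2.37 RPKM stood beside 2.42 RPKM. TAPBP lies outside these bounds and 6 members lie inside. TUBB, a beta tubulin, was the highest at 644 RPKM, followed by the read-through gene ATP6V1G2-DDX39B at 113, HLA-B at 105, the chloride channel gene CLIC1 at 81.4 and HLA-C at 71.1 RPKM. ATP6V1G2-DDX39B overlaps DDX39B, and its level depends on how reads were shared out.

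**Figure D5:**
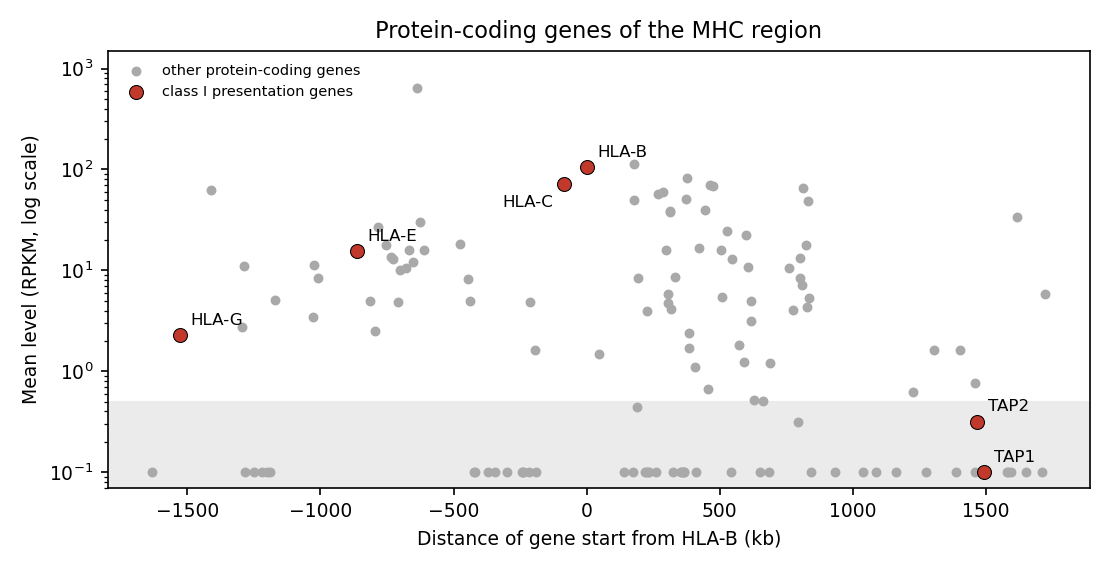
Mean level in RPKM on a log axis of 135 protein-coding genes against the distance of their start from that of HLA-B in kilobases; members are red and labelled, other genes grey, and the grey band is the range under 0.5 RPKM. HLA-B and HLA-C lie near the top of the region, and TAP1 and TAP2 lie in the band.

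Markers of blood cells, which carry much class I, were mostly at the floor. Of 15 blood and macrophage markers 2 reached 1 RPKM, beside 59.8% of protein-coding genes. They were CD68 at 3.41 and CD163 at 1.22 RPKM. The summed level of the list was 6.93 RPKM in library 1 and 6.30 RPKM in library 2. The pan-leukocyte gene PTPRC, CD14, SPI1 and CD3E were at the floor, and the part of blood cells in the class I levels was not tested beyond these values. Of 8 endothelial markers matched 2 reached 1 RPKM, beside the same 59.8%. They were ESAM at 5.75 and KDR at 1.61 RPKM, and CDH5 was at the floor. In bulk RNA, a low level in every cell and a higher level in a few cells cannot be told apart.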

How the data were processed

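The authors deposited 1 table of RPKM values for 57158 versioned Ensembl genes in 2 libraries. Per the submitters' processing notes, FastQC 0.10.1, STAR 2.3.0e and Cufflinks 2.2.0 were used on hg19, and the series text names Sailfish. Neither the tool behind the RPKM values nor the annotation release nor the read length is given in the sources used here. Second strands were marked with dUTP and removed, per the labels' protocols. PCR without molecular identifiers makes counting error a lower bound. No value lay between 0.1 and 0.5 RPKM, and 39548 and 39542 values were 0.1.

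Identifiers were joined without version to GENCODE release 44 on GRCh37, which is hg19 under another name. Of them 54428 (95.2%) found a match, with Python 3.11.15 and pandas 2.3.3. Gene positions are those of release 44, whose gene models can differ from the identifier versions that the levels were computed on. Protein-coding symbols took the identifier of highest mean. Among 1909 single-exon genes of unchanged version, 97.6% and 97.4% of values under 500 reads were whole within 0.02 of a read when length was end minus start. The libraries were compared over 781 of these at 50 reads or more, and the check was tested on simulated data. Multi-exon genes gave no whole reads, so no count test was used.

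Detection meant at least 1 RPKM in each library. With 1 group no test was made: lists are given as counts and medians. Of 258 list symbols 254 were matched. The members, the 21 lists, the motifs and the alternatives were chosen with earlier results of these data known. Named genes are all members, up to 4 highest and 3 lowest of each list, both sides of each ratio and the 5 highest genes of the MHC region. Other names were chosen after their values were seen. A few list genes are not reported here by name, and their lists' counts include them.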

Additional observations from a re-analysis of the deposited data

How the results depend on the processing

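The count of 6 members detected was 6 at limits of 0.5 and 2 RPKM, on the mean of the libraries and without either library, and 5 at a limit of 5 RPKM, where HLA-G is lost. The HLA-C to HLA-B ratio ran from 0.667 to 0.688 over the libraries. A pseudocount of 1 RPKM gave 0.155 for HLA-E over HLA-B (0.147 without), 5.90 for the summed heavy chains over B2M (5.96 without) and 0.0406 for the inducible over constitutive proteasome subunits (at most 0.0220 without). A pseudocount of 0.1 RPKM gave 0.0239 for the last ratio, and floor values left at the listed 0.1 RPKM, an alternative chosen after seeing the data, gave 0.0168. The pseudocount was added to each gene before summing. It therefore moves a ratio toward the number of genes above over the number below. That is 4 for the heavy chains over B2M and 1 for the other ratios. The listed 0.1 lowers the sum of the inducible subunits. Of the MHC region genes, 83 reached 0.5 RPKM and 52 reached 5 RPKM, beside 77 at 1 RPKM. Genes past 1.5-fold between libraries numbered 2, against 7 with a pseudocount of 0.1, 12 with 0.01 and 32 with no filter on low values. At a limit of 0.5 RPKM, 11 interferon-stimulated genes counted instead of 7 and 3 other heavy chain loci instead of 1. At 5 RPKM, 8 lists moved by over 1.5 times: 9 promoter factors counted instead of 15, 7 interferon signalling genes instead of 14, 2 class II genes instead of 5, 2 class I-like genes instead of 4, 3 trophoblast markers instead of 5, 1 endothelial marker instead of 2, and no blood marker or inducible proteasome subunit instead of 2 and 1. Without library 2, HLA-W also counted, which made 2 other heavy chain loci. No symbol had more than 1 row, so summing rows changed no value. No paired analysis was possible because the series has 1 group and no result comes from a test. The floor of 0.5 RPKM limits what can be said of TAP1, TAP2 and NLRC5.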

Other observations

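Most class I-like genes, which share the fold of the heavy chain but serve other tasks, were at the floor. Of 18 such genes 4 reached 1 RPKM, beside 59.8% of protein-coding genes. FCGRT, the neonatal Fc receptor that recycles albumin and antibodies and also pairs with B2M, had 18.0 RPKM in library 1 and 18.8 RPKM in library 2. PROCR, the protein C receptor, had 8.37 RPKM, and the stress ligands of natural killer cells ULBP3 and MICA had 1.79 and 1.49 RPKM. HFE, MR1 and CD1D were at the floor.

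Genes of the MHC class II pathway reached 1 RPKM in 5 of 17 cases, beside 59.8% of protein-coding genes. CIITA, the activator of this pathway and a relative of NLRC5, was at the floor. CD74, the invariant chain, had 6.96 RPKM, HLA-DPB1 5.88, HLA-DQB1 1.62, HLA-DQB2 1.61 and IFI30 1.23 RPKM, while HLA-DRA and HLA-DPA1 were at the floor.

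Of 15 checkpoint and inhibitory ligands 6 reached 1 RPKM, beside 59.8% of protein-coding genes. NECTIN2 and PVR, which bind receptors of natural killer and T cells, had 79.7 and 22.5 RPKM, the B7 family member CD276 had 55.4, TGFB1 24.4, CD200 12.9 and CD47 2.85 RPKM. CD274 (PD-L1), PDCD1LG2 and IDO1 were at the floor. All 10 genes for class I receptors of immune cells, among them CD8A, LILRB1 and KLRD1, were at the floor in both libraries.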
